A study of Homo sapiens with 7 samples.

Results

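The contacts described here are those of Ishikawa cells, a human endometrial adenocarcinoma line, captured by H3K27ac HiChIP. HiChIP joins DNA ends that lie close together in the nucleus and then pulls down the joined fragments with an antibody, here against acetylated lysine 27 of histone H3 (H3K27ac), a mark of active promoters and enhancers. The 4 Ishikawa samples were 2 given the vehicle DMSO for 1 h and 2 given 10 nM 17β-estradiol (E2), the main natural estrogen, for 1 h. Their chromatin was cut with DpnII, which cuts at GATC, and they were deposited as a single loop list. A loop is a pair of different anchors, the intervals that HiChIP joins, on 1 autosome, and its value is the number of read pairs that join them. All such pairs of the Ishikawa list were taken, 163435 of the 351347 in the 3 lists of the series, and they carried 1039862 read pairs. Every sample came from 1 cell line, so the values describe that line and not endometrial tissue.

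In a gene's wiring, an enhancer is a stretch of DNA that binds transcription factors and raises the output of a promoter, often across many kilobases and past other genes. The endometrial epithelium comes from the Müllerian duct, and the transcription factors PAX8, SOX17, EMX2 and MSX1 are known to be active in it. Estrogen acts through its receptor, encoded by ESR1, which binds a paired DNA motif, the estrogen response element, at enhancers and promoters.

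A promoter was a window of 500 bp centred on the start of any protein-coding transcript, and a gene was linked to an anchor when a loop joined that anchor to one over the gene's promoter and the anchor itself held no promoter of any protein-coding gene. Of 19229 autosomal protein-coding genes, 10102 had a promoter in a loop anchor and 9498 were linked to at least 1 promoter-free anchor, which is 49.4% of all genes. The list consisted of 4 separately sorted blocks with 24178 to 99859 loops and 90093 to 441867 read pairs each. Nothing ties a block to a sample, so DMSO and E2 could not be compared and no value has a replicate error. Values are given by block, in order from block 1 to block 4, to show how far each rests on a single block. A row of the list holds at least 3 read pairs and passed the authors' filter on the false discovery rate, so a block at 0 had no loop of that gene that passed both. Of the loops, 66.2% occurred in 1 block alone and 3.99% in all 4. The intervals of shares are 95% Wilson intervals and cover counting error only.

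The stretches of DNA before 3 of the Müllerian marker genes are shown because the contacts of these promoters are described below. The markers were chosen with earlier results of these data known, so their links cannot check the labelled cell type. Each is the 150 bases before the annotated 5′ end, read 5′ to 3′ on the gene's strand from GRCh37, and capitals mark a GC box (GGGCGG) or a CCAAT box (CCAAT) on either strand. The PAX8 stretch is chr2:114036499-114036648 on the minus strand, the EMX2 stretch chr10:119301806-119301955 and the MSX1 stretch chr4:4861242-4861391, both on the plus strand.
PAX8: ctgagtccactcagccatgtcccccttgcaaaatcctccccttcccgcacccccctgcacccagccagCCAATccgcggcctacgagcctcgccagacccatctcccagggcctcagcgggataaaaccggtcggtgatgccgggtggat
EMX2: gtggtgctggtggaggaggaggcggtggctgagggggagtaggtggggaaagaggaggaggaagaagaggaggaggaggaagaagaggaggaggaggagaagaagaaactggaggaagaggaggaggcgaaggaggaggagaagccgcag
MSX1: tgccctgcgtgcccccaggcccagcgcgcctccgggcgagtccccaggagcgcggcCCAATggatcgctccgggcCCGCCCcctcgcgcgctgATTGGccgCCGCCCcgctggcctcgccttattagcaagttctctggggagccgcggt
All 3 stretches lay inside a loop anchor. Their GC content was 65.3% in PAX8, 60.7% in EMX2 and 75.3% in MSX1, beside a median of 62.0% over the 19229 genes. The MSX1 stretch held 2 GC boxes and 2 CCAAT boxes, the PAX8 stretch 1 CCAAT box and the EMX2 stretch neither. A GC box was present in 43.2% of all such stretches and a CCAAT box in 24.9%.

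All 4 Müllerian markers were linked to promoter-free anchors, with EMX2 and PAX8 ahead of MSX1 and SOX17. EMX2, a homeobox factor of the urogenital tract, had 103 read pairs, split by block as 14, 17, 36 and 36, and 11 linked anchors. PAX8, a paired-box factor used to identify Müllerian tumours, had 95 read pairs, split as 19, 9, 38 and 29, and 6 linked anchors. Both had read pairs in every block. MSX1, a homeobox factor of the uterine epithelium, had 72 read pairs (24, 5, 28 and 15) and 6 linked anchors. SOX17, a factor of endometrial glands, had 27 read pairs (15, 0, 5 and 7) and 3 linked anchors, so block 2 held none of its loops. Over genes with promoter loops the median was 18 read pairs, and over linked genes it was 3 linked anchors, so all 4 markers were above the median in read pairs and SOX17 was at the median in linked anchors. EMX2 lies in the part of chromosome 10 where the list is dense, and there the median over genes with promoter loops was 70.0 read pairs. Read pairs also rose with promoter anchor width, as described below. The anchors spanned 13.9 kb at EMX2, 18.9 at PAX8, 9.82 at MSX1 and 9.45 at SOX17. The median was 6.19 kb outside the dense parts and 7.51 kb in that of chromosome 10. Genes outside in the width bins with medians of 7.46 and 12.6 kb had medians of 20.5 and 46 read pairs. The 95 of PAX8 and 72 of MSX1 lay above both, and the 27 of SOX17 between them. The same genes have further transcripts that the annotation does not class as protein-coding, called non-coding transcripts here for short. When their starts were also counted, PAX8 had 162 read pairs and 5 linked anchors, and the other 3 markers kept their values.

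The marker genes differed in how their contacts were laid out. The strongest EMX2 anchor (chr10:119315812-119320359) lay 16.1 kb downstream of the gene's 5′ end with 36 read pairs. That anchor almost adjoins the EMX2 promoter anchor, which ends at 119314990. All 11 anchors linked to EMX2 were intergenic. For PAX8 the strongest was inside the gene (chr2:113973846-113989907), 54.6 kb from the start, with 25 read pairs, and for 5 of 6 linked anchors PAX8 had the nearest start site. MSX1 stood apart: 54 of its 72 read pairs led to a single anchor of 40.3 kb (chr4:4488992-4529309), 352 kb upstream in an intron of STX18, and MSX1 had the nearest start site for 2 of its 6 anchors. For SOX17 the strongest anchor (chr8:55374632-55381618) was 7.63 kb downstream with 17 read pairs. It almost adjoins the SOX17 promoter anchor, which ends at 55373632.

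**Figure D1:**
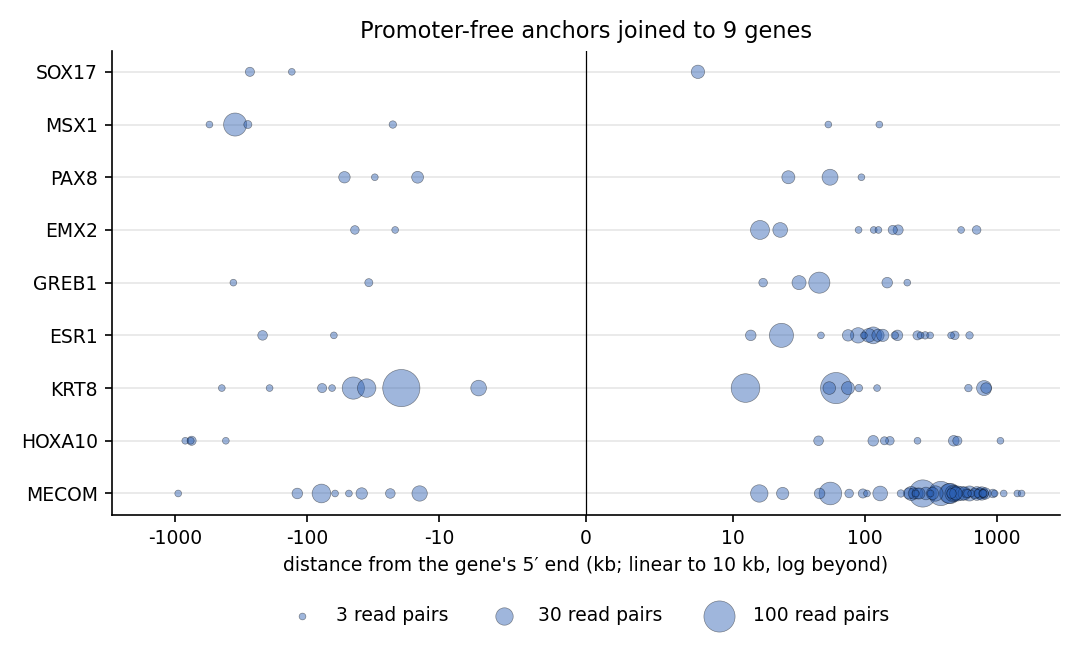
Each point is a promoter-free anchor joined to the named gene, placed by its distance from the gene's 5′ end in kb (negative is upstream, linear to 10 kb and logarithmic beyond), with an area that grows with read pairs. The MSX1 point with 54 read pairs sits 352 kb upstream, the EMX2 points with 36 and 21 read pairs lie within 25 kb downstream, and the 56 MECOM anchors spread to beyond 1000 kb.

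Markers of other cell types were linked in part. None of 8 blood cell markers was linked (0%, interval 0 to 32.4%), so that CD14, CD3D, HBB, MS4A1 and SPI1, among others, lacked a promoter loop, although 13 read pairs at CD3E and 3 at PTPRC came in when their non-coding transcripts were counted. Of 11 stromal and mesenchymal markers 4 were linked, led by the collagen gene COL1A2 with 44 read pairs (21, 0, 11 and 12), while PDGFRA, ZEB1, TWIST1, TWIST2, DCN and LUM had none and ZEB2 had 11 with non-coding transcripts only. Luminal prostate markers were linked in 4 of 6 cases, with 118 read pairs at TMPRSS2 (28, 15, 32 and 43), a membrane protease, 231 with non-coding transcripts, and 27 at KLK4, whereas HOXB13 and KLK2 had none. Luminal breast markers were linked in 3 of 6 cases but with at most 11 read pairs, at AZGP1, against 7 at GATA3 and 3 at TRPS1. Among 5 endothelial markers VWF had 69 read pairs and TEK 19, with CDH5 and ERG at none and KDR at none by protein-coding starts but 30 with non-coding transcripts, and VWF lies in the dense part of chromosome 12. Among 7 hepatocyte and neural markers RBFOX3 had 33 read pairs, GFAP and TTR 13 each, ALB and APOA1 none and SNAP25 8 with non-coding transcripts only. The share of linked genes in these lists of other cell types ran from 0% to 66.7%, on both sides of the 49.4% of all genes.

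**Figure D2:**
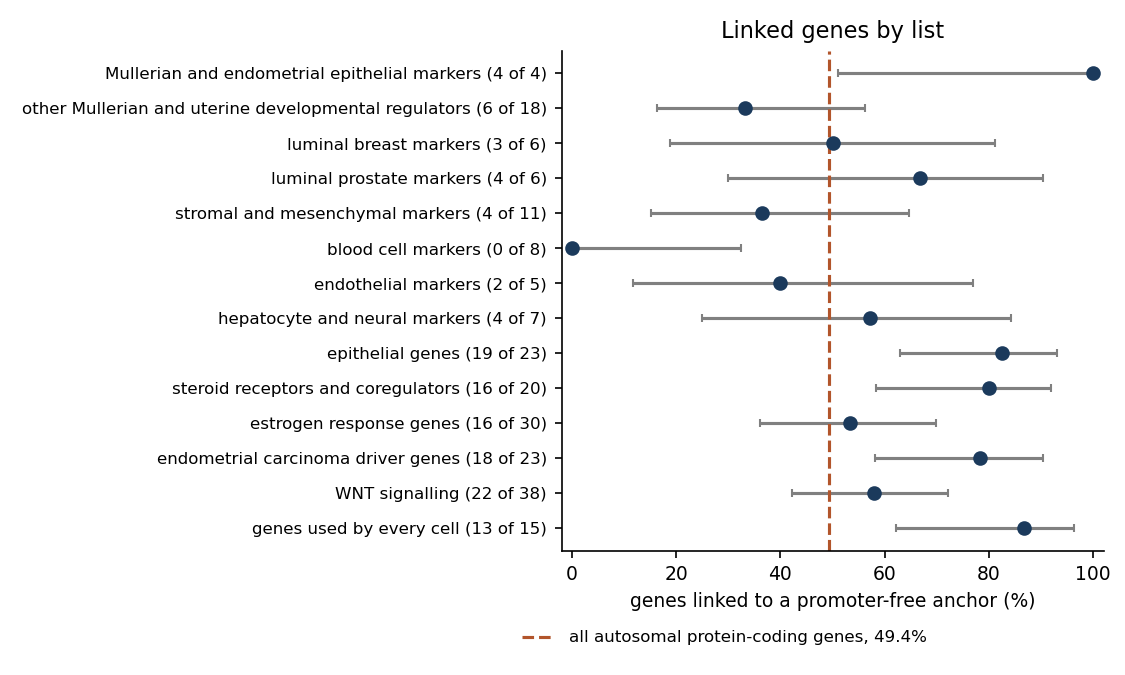
Points give the percentage of each list's measured genes that were linked to at least 1 promoter-free anchor, with 95% Wilson intervals, and the dashed line marks the 49.4% of all 19229 autosomal protein-coding genes. The blood cell markers sit at 0% and the 4 Müllerian markers at 100%.

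Of 23 epithelial genes, 19 were linked (82.6%, interval 62.9 to 93.0%), beside 49.4% of all genes. The medians over the list were 3 linked anchors and 22 read pairs, beside 0 and 3 over all genes. KRT8, a keratin of simple epithelia, led with 656 read pairs (108, 81, 272 and 195) and 17 linked anchors, and its partner KRT18 followed with 266 (32, 32, 122 and 80). The keratin genes are neighbours in the dense part of chromosome 12, and all 10 anchors linked to KRT18 were also linked to KRT8. The only promoter anchor of KRT18 is also a promoter anchor of KRT8, so the 266 read pairs are part of the 656. The strongest KRT8 anchor (chr12:53354354-53371983) lay 19.4 kb upstream with 143 read pairs. Outside the dense parts ELF3, an epithelial ETS factor, had 105 read pairs (10, 9, 64 and 22) and 10 linked anchors, and the tight-junction gene CLDN4 had 87. EPCAM, a common epithelial surface marker, had only 3 read pairs, and KRT7, OVOL1, OVOL2 and SPINT2 had none. KRT7 shows what the start-site rule can do, since counting its non-coding transcripts gave 326 read pairs and 17 linked anchors.

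Genes of steroid hormone signalling were linked in 16 of 20 cases (80.0%, interval 58.4 to 91.9%), beside 49.4% of all genes. Their medians were 4 linked anchors and 27.5 read pairs. ESR1, the estrogen receptor gene, had 257 read pairs, split by block as 62, 22, 91 and 82, and 21 linked anchors, of which 17 lay within the gene. Its strongest anchor (chr6:151995849-152006675) was in an ESR1 intron 23.4 kb from the 5′ end with 59 read pairs. A run of further intronic anchors lay 74.8 to 137 kb from that end. The ESR1 promoter anchors (chr6:152007476-152016304 and chr6:152119764-152143515) lie inside the gene, so these are not distances between joined anchors. The strongest linked anchor almost adjoins the first of them. The histone methyltransferase gene KMT2D had 222 read pairs and lies in the dense part of chromosome 12. GREB1, an estrogen-induced cofactor of the receptor, had 124 read pairs (24, 3, 40 and 57) and 7 linked anchors. The pioneer factor gene FOXA1, NRIP1 and RXRA had no promoter loop. PGR, the progesterone receptor gene, had none by protein-coding starts and 1 linked anchor with 3 read pairs with non-coding transcripts.

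Estrogen response genes were linked in 16 of 30 cases (53.3%, interval 36.1 to 69.8%), a share near that of all genes. IGFBP4, which encodes an insulin-like growth factor binding protein, had 180 read pairs (27, 15, 74 and 64) and 12 linked anchors, and the growth factor gene TGFA had 123 (31, 7, 49 and 36) and 9. The cell cycle gene CCND1 had 82 read pairs, the early-response gene FOS 75 and MYC 44. TFF1, TFF3, CA12, PDZK1 and SIAH2 were among the 14 list members that had no promoter loop by protein-coding starts. PEG10 had none either, though 3 anchors with 10 read pairs were linked when its non-coding transcripts were counted.

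The anchors linked to the estrogen response genes were searched for the estrogen response element in its strict form, the letters GGTCA, any 3 bases, then TGACC, which reads alike on both strands. It occurred in 4 of 86 anchors linked to these genes (4.65%, interval 1.82 to 11.4%), beside 149 of 23043 promoter-free anchors linked to any gene (0.647%). It occurred in 2 of 105 anchors linked to the steroid receptor and coregulator genes, which include GREB1, and in 1 of 83 linked to the epithelial genes. Of the 55 anchors linked to genes that every cell uses none held it, an interval of 0 to 6.53% that includes the 4.65%. Median anchor widths were alike, at 5.21 kb for the estrogen response genes and 5.11 kb for any gene. Motif anchors of GREB1 and TGFA reached 11.2 and 13.4 kb, however. Per Mb of anchor there were 8.20 motifs for the estrogen response genes and 1.06 for any gene. GREB1 accounts for the motif in 2 of the 4 anchors of the estrogen response genes. The 2 motif anchors of the steroid receptor and coregulator genes are the same GREB1 anchors. The sites are shown because they place the receptor's motif inside contacts of estrogen-responsive promoters. Capitals mark the arms of the motif, with 25 bases on each side, on the plus strand of GRCh37.
GREB1, chr2:11653011-11653073: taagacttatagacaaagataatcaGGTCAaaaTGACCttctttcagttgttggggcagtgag
GREB1, chr2:11664701-11664763: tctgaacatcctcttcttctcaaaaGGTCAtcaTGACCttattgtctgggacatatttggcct
GREB1, chr2:11672635-11672697: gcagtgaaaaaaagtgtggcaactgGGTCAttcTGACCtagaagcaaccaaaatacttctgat
TGFA, chr2:70843525-70843587: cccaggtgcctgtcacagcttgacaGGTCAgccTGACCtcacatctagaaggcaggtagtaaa
CELSR2, chr1:109789010-109789072: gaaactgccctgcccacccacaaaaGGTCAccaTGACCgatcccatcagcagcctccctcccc
MSX1, chr4:4838090-4838152: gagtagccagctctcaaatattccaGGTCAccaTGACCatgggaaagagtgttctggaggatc
The last belongs to the marker MSX1 and not to the estrogen list. The strongest GREB1 anchor (chr2:11662195-11673396, 45 read pairs) held 2 of the motifs, 42.3 and 50.2 kb inside the gene from its most upstream annotated start. A further GREB1 anchor with 19 read pairs held the remaining motif of that gene. A later promoter anchor of GREB1, of 13.6 kb, begins at 11675214, just past the strongest one. The TGFA motif lay 62.2 kb upstream, in an intron of ADD2, in an anchor with 21 read pairs. In CELSR2, a cadherin gene, the motif was 3.12 kb upstream with 12 read pairs, and the MSX1 motif was 23.3 kb upstream with 4. A match describes the letters in these windows and does not show that the receptor was bound.

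Developmental regulators of the Müllerian tract other than the 4 markers were linked in 6 of 18 cases (33.3%, interval 16.3 to 56.3%). This share was below the 49.4% of all genes, which the interval includes. Outside the dense parts 4 of 16 were linked, beside 47.7% of all genes outside. MECOM, a zinc-finger factor also counted among endometrial carcinoma genes, stood first with 56 linked anchors. HOXA9 and HOXA10, uterine patterning genes, share a promoter anchor of 28.2 kb with HOXA3, HOXA6 and HOXA7, and so have the same 88 read pairs (16, 7, 34 and 31) and all 12 linked anchors in common. Their contacts were long, at a median of 443 kb from HOXA10, with 10 read pairs to an intron of SKAP2 472 kb away. WNT7A, a ligand of the uterine epithelium, had 62 read pairs and PAX2 46. FOXA2, WT1, HAND2, HOXA11, HOXA13, LHX1, MSX2, TBX3, EMX1, WNT4, WNT5A and WNT9B had none by protein-coding starts. With non-coding transcripts WT1 had 13 read pairs and EMX1 3.

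WNT signalling genes were linked in 22 of 38 cases (57.9%, interval 42.2 to 72.1%), beside 49.4% of all genes. By role, the intracellular transducer DVL3 had 160 read pairs, the nuclear effector TCF7L2 111 (249 with non-coding transcripts), the ligand WNT3 92 and the receptor FZD5 55. DVL3 and TCF7L2 lie in the dense parts of chromosomes 3 and 10, and WNT3 was the highest outside them by protein-coding starts. With non-coding transcripts TCF7L1, a further nuclear effector, went from 0 to 146 read pairs and 16 linked anchors, above the 111 of WNT3, and the inhibitor gene NKD2 from 0 to 96. APC, a tumour suppressor of the pathway, had no promoter loop and CTNNB1 had 6 read pairs. Endometrial carcinoma driver genes were linked in 18 of 23 cases (78.3%), but 7 of the 23 lie in the dense parts. Of the 16 outside 12 were linked, beside 47.7% of all genes outside. Inside, CHD4 had 289 read pairs (72, 10, 101 and 106) and PIK3CA 127, and outside the receptor kinase gene ERBB2 had 117 (15, 10, 56 and 36). PIK3R1 had no promoter loop. POLE, SPOP and CCNE1 had none by protein-coding starts but 65, 36 and 3 read pairs with non-coding transcripts. When non-coding transcripts were counted, the fibroblast growth factor receptor gene FGFR2 moved from 33 read pairs to 390, and ERBB3, a further receptor kinase gene, from 43 to 276. Genes used by every cell were linked in 13 of 15 cases (86.7%), beside 49.4% of all genes. EIF4A1 led with 179 read pairs, followed by TUBA1B with 158 and GAPDH with 87, while ACTB had 6 and B2M none.

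The anchors of this list covered gene starts only modestly more than other places, which bears on every promoter link. An anchor covered the 5′ end of 44.1% of genes, against a mean of 25.2% of genes at positions 50 to 100 kb away, a ratio of 1.75. Coverage fell back within 3 kb downstream, to 26.0%, and stayed slightly raised upstream, at 28.5% at 5 kb. Outside the dense parts the values were 42.6% and 24%, and inside them 65.7% and 42.0%.

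**Figure D3:**
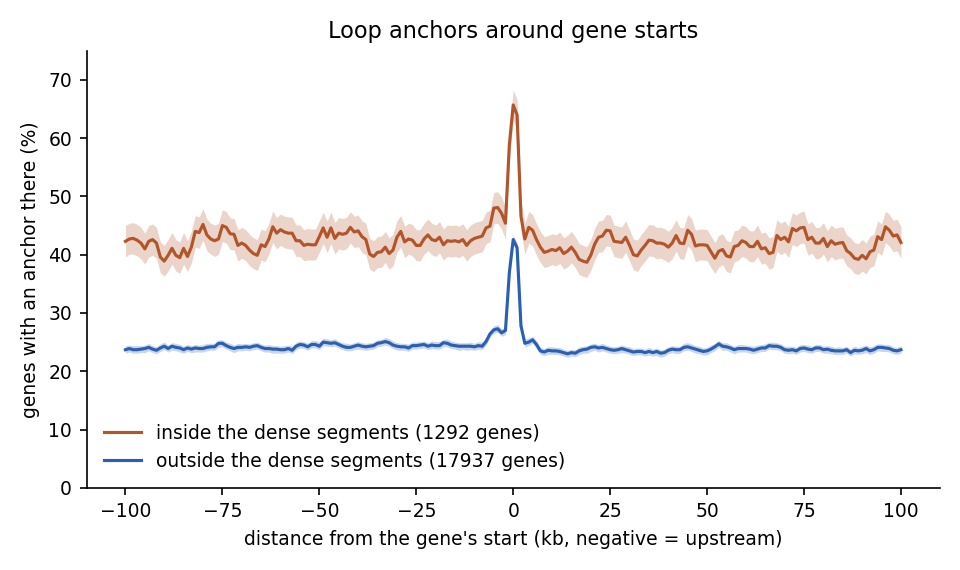
The percentage of genes with a loop anchor at each distance from the gene's start (kb, negative is upstream) is plotted for the 1292 genes inside and the 17937 outside the dense segments, with 95% Wilson bands. Both curves peak at the start, at 65.7% and 42.6%, above flat levels near 42.0% and 24%.

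Of 91995 anchors, 10680 (11.6%) held a promoter. The share was highest at the extremes of width: it was 57.8% of the 2479 anchors under 3 kb, 7.66% of those of 3 to 6 kb and 39.0% of the 123 anchors of 24 kb or more. It also rose with strength, from 9.50 to 11% in the lower 3 of 4 equal bins of anchors by read pairs to 15.7% in the top bin and 30.4% in the highest 1%. Loops between a promoter anchor and a promoter-free anchor made up 21.6% of loops (interval 21.4 to 21.8%) and 23.2% of read pairs, and loops between promoter anchors made up 3.40% and 4.33%. The remaining 75% of loops joined promoter-free anchors to each other.

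Over the 37059 links between a gene and a promoter-free anchor, the anchor centre lay a median of 53.0 kb from the gene's annotated 5′ end. That end can lie away from the promoter anchor joined. The loops of a promoter and a promoter-free anchor themselves had a median span of 43.4 kb. Distances of links below are from the 5′ end. Within 20 kb lay 23.4% of them, with a median of 7 read pairs, and beyond 250 kb lay 10.9%, with a median of 3. The linked gene had the start site nearest to the anchor in 42.6% of links, which carried 52.0% of the linked read pairs. Anchors inside the linked gene made up 27.3% of links, anchors inside another protein-coding gene 35.6% and intergenic anchors 37.2%. Introns took most of the genic links, with 24.6% of all links in introns of the linked gene and 30.0% in introns of another. Of the 23043 linked anchors, 66.2% were linked to 1 gene.

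Outside the dense parts of chromosomes 3, 10 and 12, 8564 genes or 47.7% of 17937 genes were linked, at a median of 2 linked anchors per linked gene, and 335 genes (1.87%) had 10 or more. The 15 genes with the most read pairs fell into a few neighbourhoods. On chromosome 1, PDE4DIP, which encodes a protein that anchors a phosphodiesterase, led with 1219 read pairs (356, 177, 246 and 440), followed by AL590452.1, which shares one of its anchors, with 774, and by SEC22B, a vesicle transport gene, with 608. With non-coding transcripts PDE4DIP stayed first, with 1293, and was followed by NBPF1 with 1000 and NFATC1 with 955, which had fewer read pairs than the first 15 by protein-coding starts. PDE4DIP ranked first in blocks 1, 2 and 4 and 3rd in block 3. Its strongest anchor (chr1:144935780-144951462) lay in its own intron with 134 read pairs and almost adjoins a PDE4DIP promoter anchor (chr1:144919338-144934202). But 3 of the 15 anchors linked to PDE4DIP, with 20 read pairs together, were more than 2 Mb away. The farthest was 24576 kb away in an intron of NOTCH2. Only 143 of all 163435 loops spanned more than 2 Mb. Of 50-base words taken from the PDE4DIP promoter anchors, 5.69% occurred more than once in GRCh37, beside a median of 2.51% and a 95th percentile of 11.7% over all promoter anchors.

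A dense stretch of chromosome 17 gave most of the others. CDK3, a cyclin-dependent kinase gene, had 731 read pairs (123, 92, 275 and 241) and EVPL, which encodes the cornified envelope protein envoplakin, 711 (118, 99, 270 and 224). Their anchors were joined to each other by 209 read pairs, so they share that loop. Those anchors lie almost end to end (chr17:73980702-74001966 and chr17:74003799-74024711). RECQL5, a DNA helicase gene, had 556, SMIM5 and SMIM6 the same 491 from a shared anchor, FBF1 486 and FADS6 454. CDK3, EVPL and FBF1 each reached beyond 5 Mb, at most 5439, 5502 and 5333 kb. On chromosome 18, MBP, the myelin basic protein gene, had 734 (198, 87, 218 and 231) and CTDP1, a phosphatase of RNA polymerase II, 550 (155, 87, 131 and 177). Around these genes the list was as dense as in the 3 named parts: CDK3 had 262 loops per Mb in the 5 Mb around it, MBP 278 and FADS6 311, beside a median of 60.6 over genes outside and 259 over genes inside. In all, 9 of the 15 had 150 or more loops per Mb around them, against 1.10% of the 17937 genes. The other 6 were PDE4DIP, AL590452.1, SEC22B, NDST1, CAPG and CUEDC1.

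Of those, 3 lay away from the chromosome 1 group, with loops around NDST1 and CUEDC1 near the median density and 100 loops per Mb around CAPG. NDST1, a heparan sulfate enzyme gene, had 590 read pairs (108, 66, 236 and 180). Of these, 261 joined its own anchors of 41.6 and 33.3 kb, the strongest promoter loop outside the dense parts. These anchors lie almost end to end (chr5:149831194-149872807 and chr5:149874870-149908130). CAPG, an actin-capping gene, had 569 (124, 71, 169 and 205) with 23 linked anchors, 20 of them shared with its neighbour SH2D6. CUEDC1 had 494, between 43 and 196 in each block, 133 of them to an anchor in its own intron (chr17:55986373-55996780). Of those 133, 118 came from the promoter anchor almost adjoining it (chr17:55944031-55985322). A further strong promoter loop, with 164 read pairs (39, 26, 55 and 44), joined the potassium channel gene KCNJ5 to TP53AIP1 on chromosome 11. By block, NDST1 ranked 4 to 10 among genes outside, CAPG 7 to 11 and CUEDC1 7 to 25, though the blocks are parts of the sum that chose these genes.

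**Figure D4:**
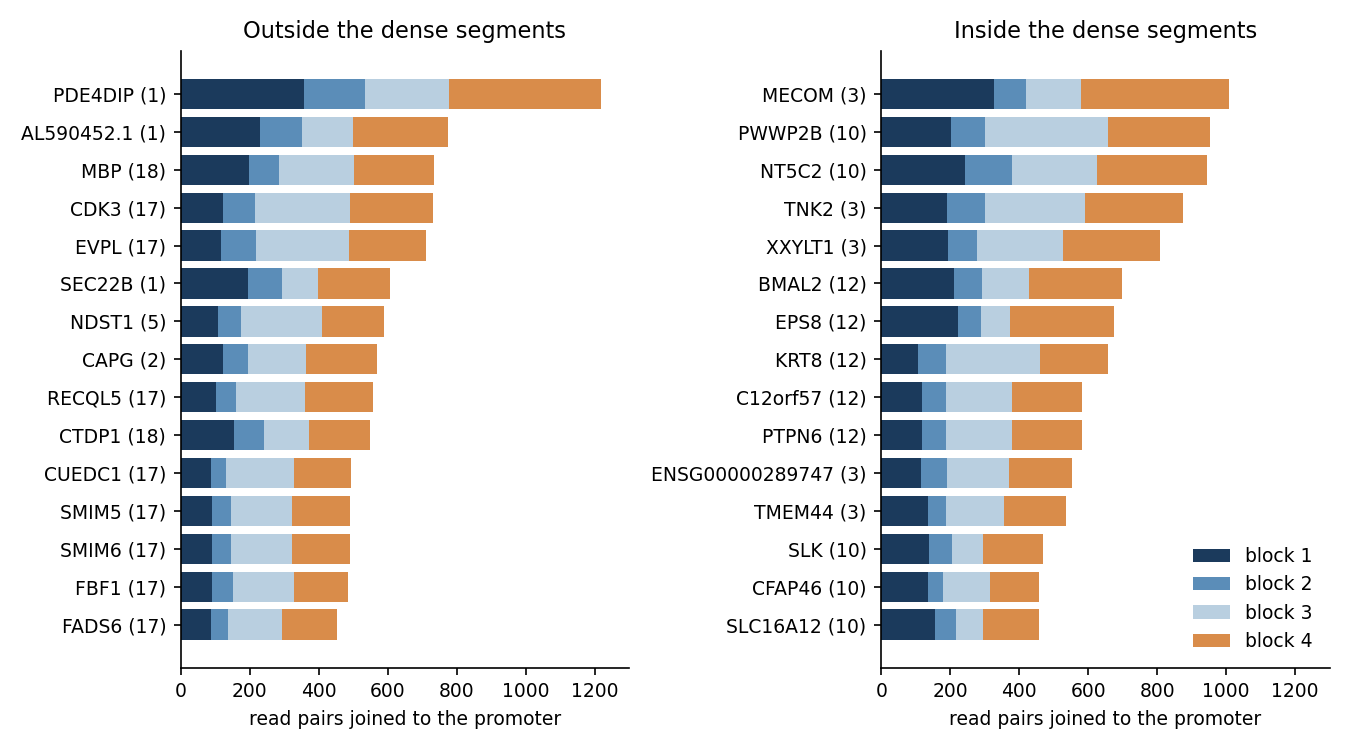
Bars give the read pairs joined to each gene's promoter, stacked by block of the list, for the 15 highest genes outside the dense segments and the 5 highest in each segment, with the chromosome in brackets. All 30 genes had read pairs in all 4 blocks, from 454 in all at FADS6 to 1219 at PDE4DIP.

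Ranking by linked anchors brought up other genes. CTDP1 led with 36 linked anchors, followed by DLGAP2, a synaptic scaffold gene near the start of chromosome 8, with 29, MBP and the zinc transporter gene SLC39A11 with 27 each and ZNF516 with 24, and all 5 had 252 or more loops per Mb around them. With non-coding transcripts the order of the first 2 reversed, with 47 linked anchors at DLGAP2 and 28 at CTDP1. CAPG and INPP4B, a lipid phosphatase gene, had 23 each, and SH2D6 and HOXB3 to HOXB8 22 each. The 6 HOXB genes count as 1 observation, since a single anchor of 50.3 kb (chr17:46647135-46697467) covers them all, with 262 read pairs (81, 33, 74 and 74). From HOXB4 the linked anchors lay at a median of 243 kb, several of them in introns of SKAP1. ESR1 had 21, a number it shared with TMEM94 on chromosome 17, which was not counted among the 15. INPP4B reached its 23 anchors with only 158 read pairs (43, 27, 27 and 61), whereas CAPG had 569. ESR1, INPP4B, CAPG, SH2D6 and the HOXB genes had 62.4 to 100 loops per Mb around them.

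The ranks followed the width of the promoter anchors. Over the 9154 genes outside with promoter loops, Spearman's rho with the summed anchor width was 0.698 for read pairs and 0.644 for linked anchors, given as a description over genes that in part share anchors. In the narrowest of 4 equal bins (median 2.97 kb) genes had a median of 6 read pairs, and in the widest (12.6 kb) 46. Ranked by read pairs per kb of promoter anchor, 4 of the 15 genes stayed among the first 15, with CDK3 at 34.4 and EVPL at 34.0, and ranked by linked anchors per kb, none of the 15 did. NDST1 fell to 7.88 and ESR1 had 7.89, beside a median of 2.59 outside. Between blocks, the read pairs of the same genes correlated with rho from 0.484 to 0.632.

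Inside the dense parts, which are the last 32 Mb of chromosome 3, chromosome 10 from 74 Mb to its end and the first 73 Mb of chromosome 12, 72.3% of 1292 genes were linked, at a median of 7 linked anchors. The parts held 255, 214 and 241 loops per Mb, against 40.6, 40.2 and 46.5 on the rest of the same chromosomes. They hold 6.72% of the genes but 67 of the 100 highest by read pairs and 77 of the 100 highest by linked anchors. Their share of read pairs was alike in the 4 blocks, 30.3, 31.4, 25.1 and 27.1%. The median number of linked anchors was 7 in each part. Linked anchors lay farther from the gene's 5′ end inside, with per-gene median distances of 61.3 kb in the middle gene inside and 38.0 kb outside.

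**Figure D5:**
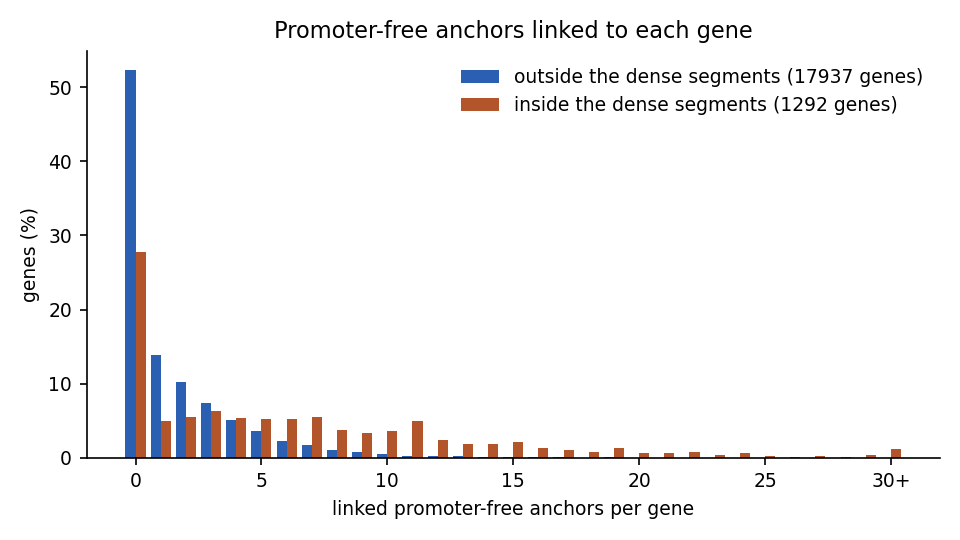
Bars give the percentage of genes with each number of linked promoter-free anchors, for the 17937 genes outside and the 1292 inside the dense segments, with 30 or more in the last bin. Genes without any link make up the tallest bar in both, and 10 or more links occur in 27% of genes inside and 1.87% outside.

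On chromosome 3 MECOM was first by both measures, with 1008 read pairs (326, 95, 157 and 430) and 56 linked anchors, 49 of which had MECOM as the gene with the nearest start. TNK2, a tyrosine kinase gene, had 875 read pairs and the glycosyltransferase gene XXYLT1 807, with 51 linked anchors each at XXYLT1 and NAALADL2. OPA1, a mitochondrial fusion gene, had 41. First place by read pairs turned with the start sites, since XXYLT1 had 1300 with non-coding transcripts and MECOM stayed at 1008, while MECOM kept the most linked anchors, 55. On chromosome 10 PWWP2B had 954 read pairs (202, 100, 356 and 296) over an anchor of 38.5 kb, NT5C2, a nucleotidase gene, 943 (242, 136, 247 and 318) and the kinase gene SLK 470. GRID1, a glutamate receptor gene, had the most linked anchors there, 39. With non-coding transcripts CFAP46, a ciliary gene, went from 456 to 1277 read pairs, above PWWP2B at 954. On chromosome 12 BMAL2, a clock gene paralogue, had 697 (211, 80, 138 and 268) and 48 linked anchors, the farthest at 19259 kb, EPS8, a signalling adaptor, 676 and KRT8 656. C12orf57 and PTPN6 share an anchor and its 581 read pairs. With non-coding transcripts ATN1, a transcriptional corepressor gene, had 949 read pairs, above BMAL2 at 697, and MSRB3, a methionine sulfoxide reductase gene, had 52 linked anchors, above BMAL2 at 41. HMGA2, an architectural chromatin factor, had 33 linked anchors, 22 of them intergenic. MECOM and EPS8 drew more on blocks 1 and 4, and PWWP2B and KRT8 more on block 3, as the stacked bars of read pairs by block show.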

How the data were processed

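The authors aligned reads to hg19 with HiC-Pro, called loops with hichipper, removed loops with fewer than 3 reads or a high false discovery rate and combined DMSO and E2 samples. The deposited value is a count of read pairs per anchor pair, not scaled for depth. Tool versions are not given in the sources used here. Every one of 183990 anchor edges met a GATC in GRCh37. For each loop, the counts of the 4 blocks were added up (pandas 2.3.3, NumPy 2.4.6, Python 3.11.15). Promoters came from GENCODE 44 lifted to GRCh37, with an overlap of 1 bp or more, and 336 genes have no protein-coding transcript there. Sequences were read from GRCh37. The linking step was tested on simulated loops and recovered 200 of 200 genes. Genes were named by rank (15 outside, 5 per segment, the 3 highest per list) or as markers, and the members and lists were chosen with earlier results of these data known. No test was run, since 1 pooled list has no replicates. Read depth limits each value to the pairs kept in the list. Some list members are counted but not reported by name here.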

Additional observations from a re-analysis of the deposited data

Results flagged for a closer look

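Some of the deposited data lie outside the autosomal loops. Chromosome X carried 95 loops, which no comparison above uses. Rows whose ends were the same anchor numbered 85020 and carried 472157 read pairs, and of the anchors in loops such rows existed for 52.6% of those over a promoter and 47.5% of those free of one. There is no control list to compare these values with.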

How the results depend on the processing

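No paired analysis was possible because the samples that share replicate numbers were pooled into 1 list. Leaving out each block in turn gave 8484 to 9398 linked genes (9498 in full), means of 2.79 to 3.27 linked anchors per linked gene outside (3.35 in full) and 7.10 to 8.68 inside (8.93 in full), kept 13 to 15 of the 15 highest genes by read pairs and 12 to 15 by linked anchors, and left 4 markers linked. Loops of 5 or more read pairs lowered those means to 2.18 and 5.06. Loops of 10 or more gave 3778 linked genes, means of 1.68 and 3.35 and 6 of the 15 by linked anchors, and loops in 2 or more blocks gave 5834 linked genes and means of 2.03 and 4.6, with fewer loops by construction. With 1 start site per gene, 9 of the 15 by read pairs and 9 by linked anchors stayed. With every transcript start, an alternative chosen after seeing the data, 8 and 6 stayed. Only pairs to promoter-free anchors kept 7 of the 15 by read pairs, division by anchor width kept 4, and 0 by linked anchors. Genes with fewer than 150 loops per Mb around them, also chosen after seeing the data, kept 6 by read pairs. All 4 markers stayed linked in every alternative run, and 69 of 86 values were within 1.5 times of the main value. Of 84 named genes, read pairs moved by over 1.5 times for 52 without block 4, the deepest, 29 without block 3, 13 without block 1 and 0 without block 2, and linked anchors for 78 at 10 or more read pairs. The cause was not tested.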

Other observations

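With the crowded parts of chromosomes 8, 17 and 18 and other places of 150 or more loops per Mb left out, other genes took their places in the order by read pairs outside the segments. The first 15 had 40.2 to 100 loops per Mb around them. PALLD, an actin-binding gene, had 452 read pairs (128, 36, 113 and 175 by block), TP53AIP1 404 and KCNJ5 399. The cadherin genes CELSR1 and FAT2 had 318 and 305, the zinc-finger gene CXXC5 333 and AMOTL2, which encodes a junction protein, 312. CROCC, a centrosomal gene, had 342. By linked anchors, GSE1, PALLD and PBLD had 20 each and CROCC2 and MAB21L4, which share an anchor, 19. In GSE1 18 of the 20 lay within the gene, at a median of 300 kb from its 5′ end, and in PALLD 14 of 20. CROCC had 25.2 read pairs per kb of promoter anchor and SH2D6 30.0, against 7.39 in PALLD and 8.59 in CELSR1.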
